A study of Caenorhabditis elegans with 60 samples.

Results

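The 9 genes described here encode RNA-binding proteins of the Caenorhabditis elegans oocyte and early embryo: oma-1, oma-2, mex-1, mex-3, mex-5, mex-6, pos-1, pie-1 and spn-4. They were taken by WormBase symbol and matched to the gene identifiers of the deposited tables, which held all 9 of them among 31106 genes. The study asked which small RNAs associate with each of the 2 isoforms of the Argonaute protein CSR-1, the longer CSR-1A and the shorter CSR-1B, and what loss of CSR-1A does to mRNA. Small RNAs were sequenced from immunoprecipitations (IPs) of tagged Argonautes and from inputs, the part of each whole-worm lysate kept before the IP. All animals were grown at 20 °C and collected as fourth-stage larvae (L4) 48 h after hatching or as adults at 68 h.

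CSR-1A was pulled down with anti-HA from csr-1a(cmp165[2xHA::csr-1a]) animals (3 IPs, 2 inputs). The same isoform was pulled down from animals that lacked the Argonautes ALG-3 and ALG-4, with alg-4(ok1041), alg-3(tm1155) and the tagged allele csr-1a(cmp237[2xHA::csr-1a]) (3 IPs, 3 inputs), and from CSR-1A[15xAG] animals, in which cmp208[15xAG] changes 15 arginine/glycine motifs of the first CSR-1A exon (3 IPs, 3 inputs). CSR-1B was pulled down with anti-FLAG from animals that carry csr-1b(cmp167[2xFLAG::csr-1]) and lack CSR-1A through csr-1a(cmp135). In the CSR-1A+B strain, csr-1b(cmp166[2xFLAG::csr-1]), the tag sits on the part that both isoforms share, so the IP holds both. These FLAG strains had 2 IPs and 2 inputs at each of the L4 and adult stages. WAGO-1, an Argonaute of another small RNA pathway, came from L4 animals with wago-1(cmp92[GFP::3xFLAG::wago-1]) and mut-16(cmp41[mut-16::mCherry]) (2 IPs, 2 inputs). Wild-type N2 animals without a tag gave control IPs with anti-HA (3 IPs, 2 usable inputs) and anti-FLAG (3 IPs, 3 inputs), all at L4, and 2 libraries of total small RNA. L4 mRNA came from N2, from csr-1a(cmp135), which removes the start codon region of CSR-1A, and from csr-1a(cmp143), which also removes promoter sequence, with 3 libraries each. The study calls its mRNA and total small RNA libraries biological replicates. For the IPs and inputs nothing in the labels says that the libraries of a group are separate cultures, so p-values there measure the spread between these libraries, which may in part be technical.

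CSR-1 binds short RNAs that are antisense to transcripts of the germline and is known for marking genes as expressed there, whereas WAGO-1 is known for small RNAs that silence genes. The 9 proteins act on mRNAs that the mother loads into the oocyte, which stay silent until a given cell of the embryo needs them. OMA-1 and OMA-2 act redundantly in oocyte maturation and hold maternal mRNAs silent. MEX-5 and MEX-6 gather at the anterior of the zygote and drive the germline proteins PIE-1, POS-1 and MEX-1 to the posterior. PIE-1 blocks transcription in the germline cells of the embryo, POS-1 and MEX-1 specify posterior and germline fates, MEX-3 represses translation of pal-1 in anterior cells, and SPN-4 acts together with POS-1 in the control of glp-1 mRNA. The hermaphrodite germline makes sperm in L4 and oocytes in the adult, so L4 animals hold little oocyte RNA.

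Of the 9 proteins, 7 are known for CCCH zinc fingers, MEX-3 for KH domains and SPN-4 for an RNA recognition motif. A search of the longest coding transcript of each gene for a cysteine, 8 to 10 codons, a cysteine, 5 codons, a cysteine, 3 codons and a histidine found 2 such runs in 6 members, 1 in pie-1 and 0 in mex-3 and spn-4. Of 19985 coding genes, 0.24% held at least 1 run and 0.0951% at least 2. The last 30 bases of the first run are printed, 5′ to 3′ on the plus strand of the RefSeq WBcel235 genome. The search pattern placed them, so their likeness at the marked codons was set by the search. Capitals mark the codons of the third cysteine and of the histidine.
oma-1 (chrIV:8889561-8889590): tctttcgcagacaacTGCcggtttgcaCAT
oma-2 (chrV:8029965-8029994): gctttcgcggagaacTGTcgttttgctCAC
mex-1 (chrII:11969219-11969248): ccgtacggcgaagctTGCcggtttgctCAC
mex-5 (chrIV:13354681-13354710): gatatgggtgctcgaTGCaagtttgctCAT
mex-6 (chrII:9525190-9525219): gcattgggtgctcggTGCaagtttgctCAT
pos-1 (chrV:8414433-8414462): tcatacggtgatcagTGCagatttgctCAC
pie-1 (chrIII:12427285-12427314): ccgtacaacgacaatTGCacatatgctCAC

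A small RNA read of about 22 bases can be traced to 1 gene with certainty only where its sequence is unique. Every 22-base word of the members' exons was therefore searched in the whole genome. None of the words of oma-1, oma-2, pos-1, pie-1 and spn-4 occurred elsewhere. In mex-1, mex-3, mex-5 and mex-6 the share that did was 0.969%, 0.0602%, 1.12% and 1.24%. Most of this sharing lay between mex-5 and mex-6, which had 21 words in common and a longest identical run of 36 bases, whereas oma-1 and oma-2 shared 0 words. The first 30 bases of that run, which mex-5 (chrIV:13354696-13354725) and mex-6 (chrII:9525205-9525234) share, are shown with the first 22-base word in capitals, since a read from it cannot be told apart between the genes.
mex-5 and mex-6: TGCAAGTTTGCTCATGGGCTCAaagagctc
Over aligned coding bases, identity was 70.3% for oma-1 with oma-2 and 79.6% for mex-5 with mex-6. The files' counting carries no strand option, so the small RNA counts of every member can hold sense as well as antisense reads. Exons on the opposite strand covered 1.33% of mex-1 (acbp-6) and 2.09% of pie-1 (snr-6). Reads there cannot be assigned to 1 of the genes by strand.

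Small RNA libraries held 570862 to 17342341 counts on genes and mRNA libraries 16729691 to 21093818. The shallowest was CSR-1B L4 IP replicate 1, in which the members rested on 7 to 126 reads each. Small RNA levels are given as RPM, the reads of a gene scaled to the reads mapped to the genome, and mRNA levels as CPM, the counts of a gene scaled to all counts on genes. Some L4 inputs stood apart: the 9 genes summed to 26.1 to 35 RPM in the inputs of the CSR-1B, CSR-1A+B and CSR-1A[15xAG] strains, to 54.5 to 60.4 RPM in those of the alg-3/4 strain, and to 73.4 to 131 RPM in the other L4 inputs and total small RNA. In the same 3 sets of libraries 9 oocyte markers summed to 51.3 to 69.6, 129 to 132 and 141 to 294 RPM, and 10 sperm markers to 81.8 to 129, 99.2 to 113 and 163 to 299 RPM, with no marker of either list at 0 in every library of a group. The part of these gaps in the results was not tested. The labels were checked on the targeted genes: csr-1 mRNA was 131 to 141 CPM in wild type, 53.8 to 68.0 in csr-1a(cmp135) and 44 to 56.2 in csr-1a(cmp143), and small RNAs of alg-3 were 23.3 to 27.9 RPM with and 1.38 to 1.99 RPM without intact alg-3. In whole animals, fewer cells of a type and less RNA per cell cannot be told apart.

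In wild-type L4 animals the members' small RNAs lay above the median gene and their mRNAs on either side of it. Per kilobase of exon, total small RNA ranged from 3.72 RPM for mex-3 to 9.65 RPM for pos-1, or percentiles 54.5 to 74.0 of 19934 genes with a count, whose median was 2.75 RPM. Per kilobase, mRNA ranged from 1.39 CPM for oma-2 to 6.24 for spn-4, or percentiles 37 to 57.9 of 19570 genes with a median of 3.85.

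The members' small RNAs were enriched in the CSR-1B IP at L4 and, with the exception of oma-1, not in the CSR-1A IP. A gene was called enriched where edgeR's quasi-likelihood test gave at least a 2-fold higher level in the IP than in the input at a Benjamini-Hochberg adjusted p of at most 0.05, the mean of the IPs reached 10 RPM, and the untagged control IP for that antibody did not call it. All 9 members met this in the CSR-1B IP, beside 27.1% of 13287 genes tested. In the CSR-1A IP 1 of 9 met it, close to the 13.1% of 13688 genes tested. The median log2 enrichment of the members was 1.72 for CSR-1B and 0.46 for CSR-1A, against medians over all genes tested of -1.25 and 0.25. All members passed the filter on low counts in every comparison.

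**Figure D1:**
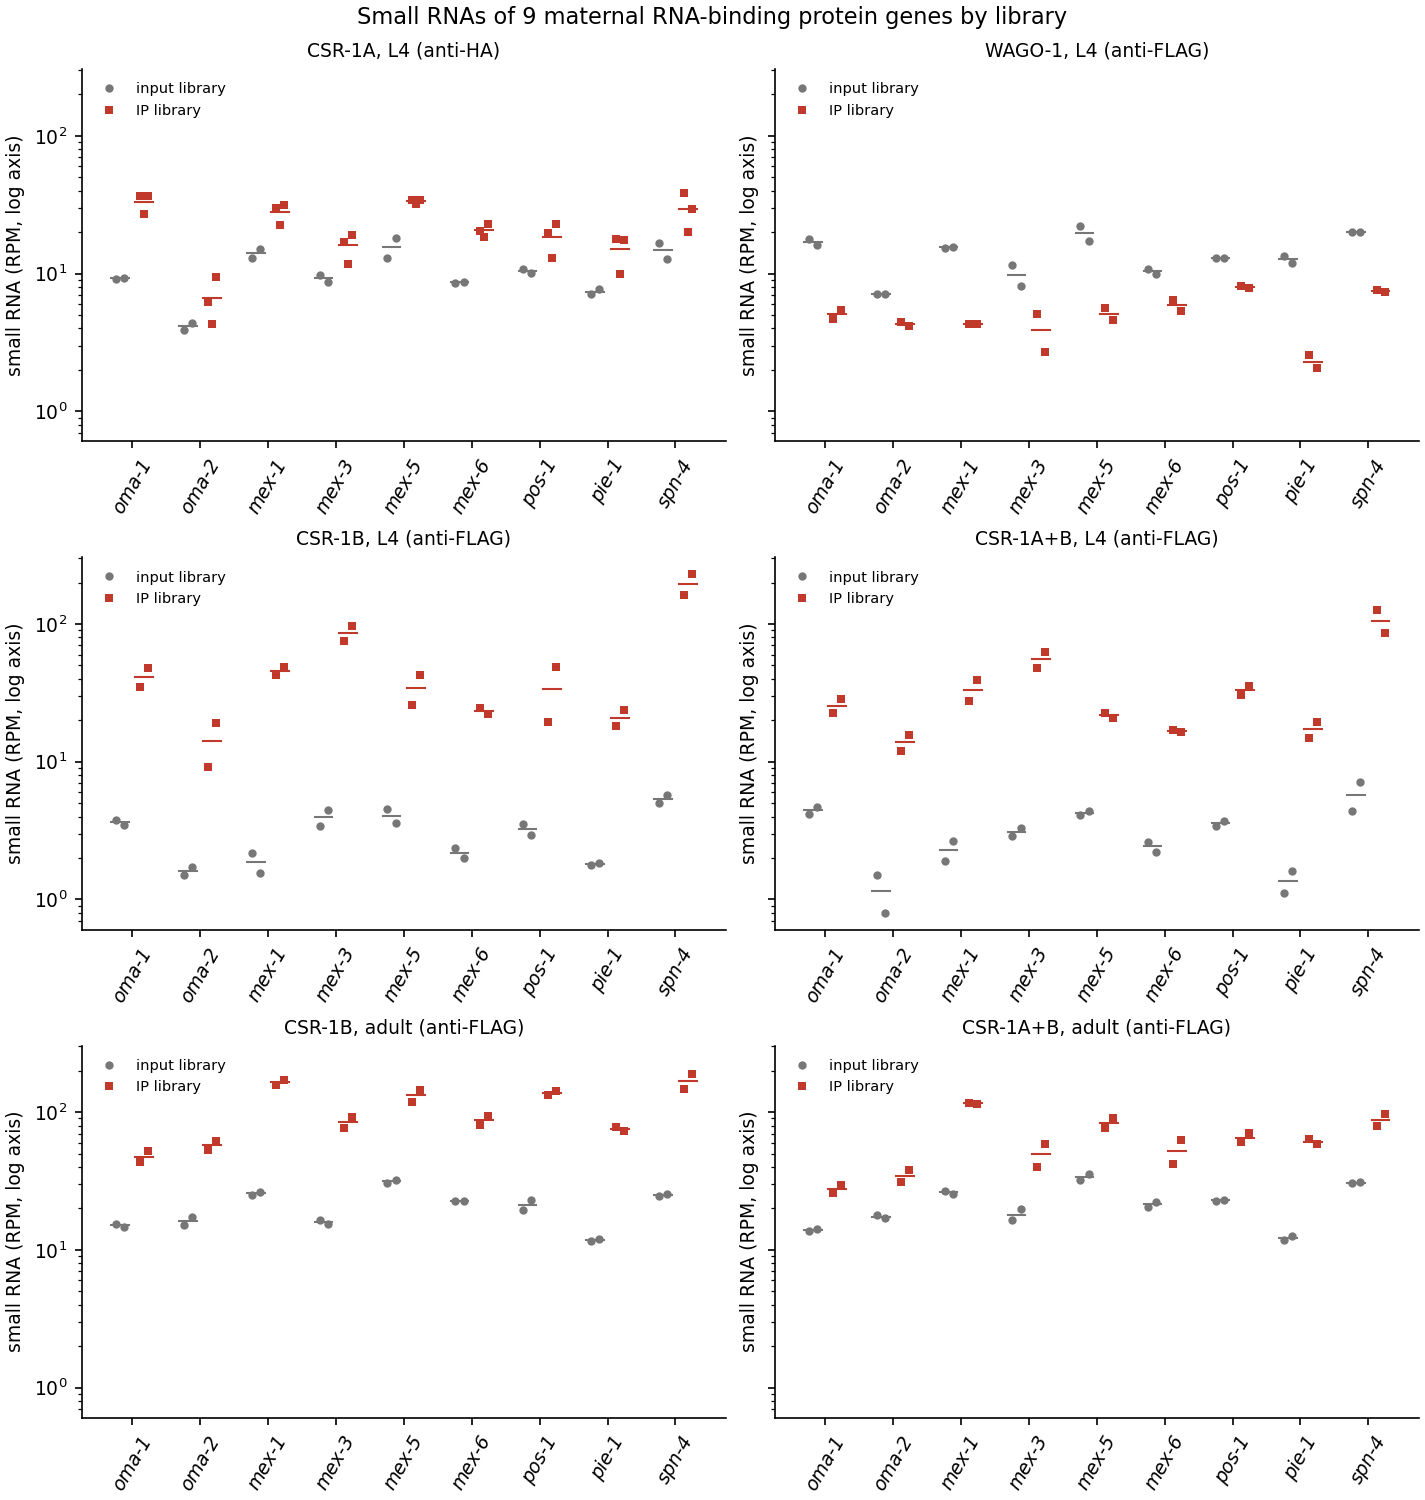
Small RNA of the 9 genes in RPM on a log axis, with each symbol 1 library (circles input, squares IP) and each short line a group mean. In the panels of CSR-1B and of both isoforms all IP libraries sit above all inputs, in the WAGO-1 panel all sit below, and in the CSR-1A panel oma-2 overlaps.

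SPN-4 and MEX-3 do not carry CCCH fingers, and their genes were among the 3 members with the largest CSR-1B enrichment at L4. Small RNAs of spn-4 were at 5.05 and 5.70 RPM in the CSR-1B inputs and at 164 and 229 RPM in the IPs. In the CSR-1A libraries they were at 16.8 and 12.7 RPM in the inputs and 38.5, 19.9 and 29.4 RPM in the IPs. The CSR-1B IPs thus exceeded every CSR-1A IP by a wide margin although their inputs were lower. The log2 enrichment of spn-4 was 3.34 ± 0.21 (SE, adjusted p = 4.84e-10) for CSR-1B and 0.46 ± 0.31 (adjusted p = 0.271) for CSR-1A. For mex-3 the inputs of CSR-1B held 3.41 and 4.49 RPM and its IPs 75.3 and 96.3 RPM. The CSR-1A inputs held 9.81 and 8.65 RPM of mex-3 and the IPs 17.1, 11.7 and 19.2 RPM. IPs and inputs did not overlap for either isoform. The log2 enrichment of mex-3 was 2.61 ± 0.23 (adjusted p = 3.39e-08) for CSR-1B and 0.26 ± 0.28 (adjusted p = 0.476) for CSR-1A, close to the median gene of the latter.

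Among the CCCH proteins of the germline lineage, mex-1 showed the largest CSR-1B enrichment. Small RNAs of mex-1 were at 2.16 and 1.57 RPM in the CSR-1B inputs and at 42.8 and 49 RPM in the IPs, without overlap. In the CSR-1A libraries mex-1 was at 13 and 15.1 RPM in the inputs and at 29.8, 22.6 and 31.3 RPM in the IPs, also without overlap. On the log2 scale the enrichment of mex-1 was 2.73 ± 0.26 (adjusted p = 6.55e-08) for CSR-1B, whereas 0.44 ± 0.26 for CSR-1A did not pass (adjusted p = 0.21). For pos-1, the CSR-1B IPs at 19.5 and 48.6 RPM differed most from each other, and both were above inputs of 3.54 and 2.92 RPM. For pie-1 the IPs held 18.2 and 23.6 RPM and the inputs 1.77 and 1.85 RPM. The CSR-1B enrichments of pos-1 and pie-1 were close, at a log2 of 1.72 ± 0.30 (adjusted p = 5.31e-05) and 1.73 ± 0.28 (adjusted p = 2.91e-05). Their CSR-1A values of 0.29 and 0.48 did not pass (adjusted p = 0.444 and 0.257).

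The oocyte maturation factor oma-1 was the member enriched with both isoforms. Its small RNAs were at 9.20 and 9.26 RPM in the CSR-1A inputs and at 36.5, 27.2 and 36.3 RPM in the IPs. With CSR-1B they were at 3.80 and 3.49 RPM in the inputs and at 35.1 and 47.9 RPM in the IPs, so the IPs of both isoforms lay in the same range. The log2 enrichment of oma-1 was 1.31 ± 0.26 (adjusted p = 0.00848) for CSR-1A and 1.69 ± 0.24 (adjusted p = 6.6e-06) for CSR-1B. The CSR-1A call for oma-1 was lost when either of the 2 inputs was left out, at log2 values that stayed between 1.11 and 1.42 over the libraries left out in turn. Its partner oma-2 was at 3.88 and 4.38 RPM in the CSR-1A inputs and 6.22, 4.31 and 9.39 RPM in the IPs, which overlapped. With CSR-1B, oma-2 rose from 1.51 and 1.71 RPM to 9.09 and 19 RPM, a log2 enrichment of 1.5 ± 0.33 (adjusted p = 0.000486).

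The polarity genes mex-5 and mex-6 had the smallest CSR-1B enrichments at L4. Small RNAs of mex-5 were at 4.53 and 3.56 RPM in the CSR-1B inputs and 26 and 43 RPM in the IPs. With CSR-1A they were at 13 and 18.2 RPM in the inputs and 34.1, 31.8 and 34.4 RPM in the IPs. As for oma-1, the IP levels of mex-5 overlapped between isoforms and the input levels did not. The log2 enrichment of mex-5 was 1.32 ± 0.26 (adjusted p = 0.000162) for CSR-1B and 0.54 ± 0.26 (adjusted p = 0.137) for CSR-1A. For mex-6 it was 1.47 ± 0.27 (adjusted p = 0.000105) and 0.71 ± 0.24 (adjusted p = 0.0531). The 2 CSR-1B IPs did not weigh equally on these calls: without IP replicate 2, 6 of 9 members were enriched, with oma-2, mex-5 and pos-1 lost at log2 values of 0.65, 0.79 and 0.70, and without the shallow IP replicate 1 all 9 were. Without input replicate 1, 8 of 9 were enriched.

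The scale of these changes differs from a plain ratio of RPM, since the fit sets the libraries to a common trimmed mean over genes. As ratios of mean RPM, the members were 8.52-fold to 36.6-fold higher in the CSR-1B IP than in the input, beside 1.66-fold for the median gene. With CSR-1A they were 1.61-fold to 3.61-fold higher, beside 1.73-fold for the median gene. By RPM the IPs lay above the inputs without overlap for 9 of 9 members with CSR-1B, as for 49.4% of genes tested, and for 8 of 9 with CSR-1A, as for 54.9%. Relative to the median of all genes, the members' median log2 enrichment was 2.97 higher with CSR-1B and 0.21 higher with CSR-1A. With library size alone as the scaling these differences were 2.97 and 0.20. Without a filter on low counts, where more genes enter that median, they were 3.97 and 0.46.

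Control IPs of untagged animals held the members near the level of their inputs. The anti-HA IPs gave log2 changes from -0.38 (spn-4) to 0.33 (oma-2), and the anti-FLAG IPs from 0.03 (spn-4) to 0.51 (oma-1, adjusted p = 0.102). In edgeR 0 of 9 members were called in either, beside 1.23% and 3.85% of genes called enriched there, and 0 and 2 of 9 had an unadjusted p under 0.05. DESeq2 also called 0. By RPM, 6 of 9 members were higher without overlap in the anti-FLAG IPs, as were 23.2% of genes, at 1.14-fold to 1.59-fold.

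The difference between the isoforms was then tested directly, as the enrichment with CSR-1B minus that with CSR-1A. It was higher with CSR-1B for 7 of 9 members, beside 19.1% of 14511 genes. The largest differences on the log2 scale were 3.26 ± 0.60 for spn-4 (adjusted p = 0.000739), 2.71 ± 0.56 for mex-3 (adjusted p = 0.0015) and 2.68 ± 0.54 for mex-1 (adjusted p = 0.00124). For pos-1, oma-2, pie-1 and mex-6 the differences were 1.80, 1.75, 1.64 and 1.20, at adjusted p from 0.0222 to 0.0428. Those of mex-5 (1.16 ± 0.58, adjusted p = 0.093) and oma-1 (0.76 ± 0.54, adjusted p = 0.229) did not pass. These calls depend on the settings: mex-5 passed in DESeq2 (1.29, adjusted p = 0.0305), with its size factors in edgeR (1.30, adjusted p = 0.0204) and with library size alone (1.74, adjusted p = 0.00189), oma-1 passed with library size alone (1.37, adjusted p = 0.00471), and mex-6 was lost without a filter on low counts (1.07, adjusted p = 0.0603). The difference passed for spn-4, mex-3 and mex-1 without CSR-1B IP replicate 2 as well, which left those 3 of 9. It also passed for 3 of 9 members without CSR-1B input replicate 1 or 2 or CSR-1A input replicate 3, for 4 without CSR-1A input replicate 2, and for 9 without CSR-1B IP replicate 1. With the replicate number as a block, 5 passed, since oma-2 (1.51, adjusted p = 0.0594) and mex-6 (1.15, adjusted p = 0.136) were lost. Antibody, tag, strain and the gap between the inputs change together with the isoform here and cannot be told apart from it. So does the version of the counting program in the file headers, 1.5.1 for CSR-1B and 1.6.5 for CSR-1A.

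**Figure D2:**
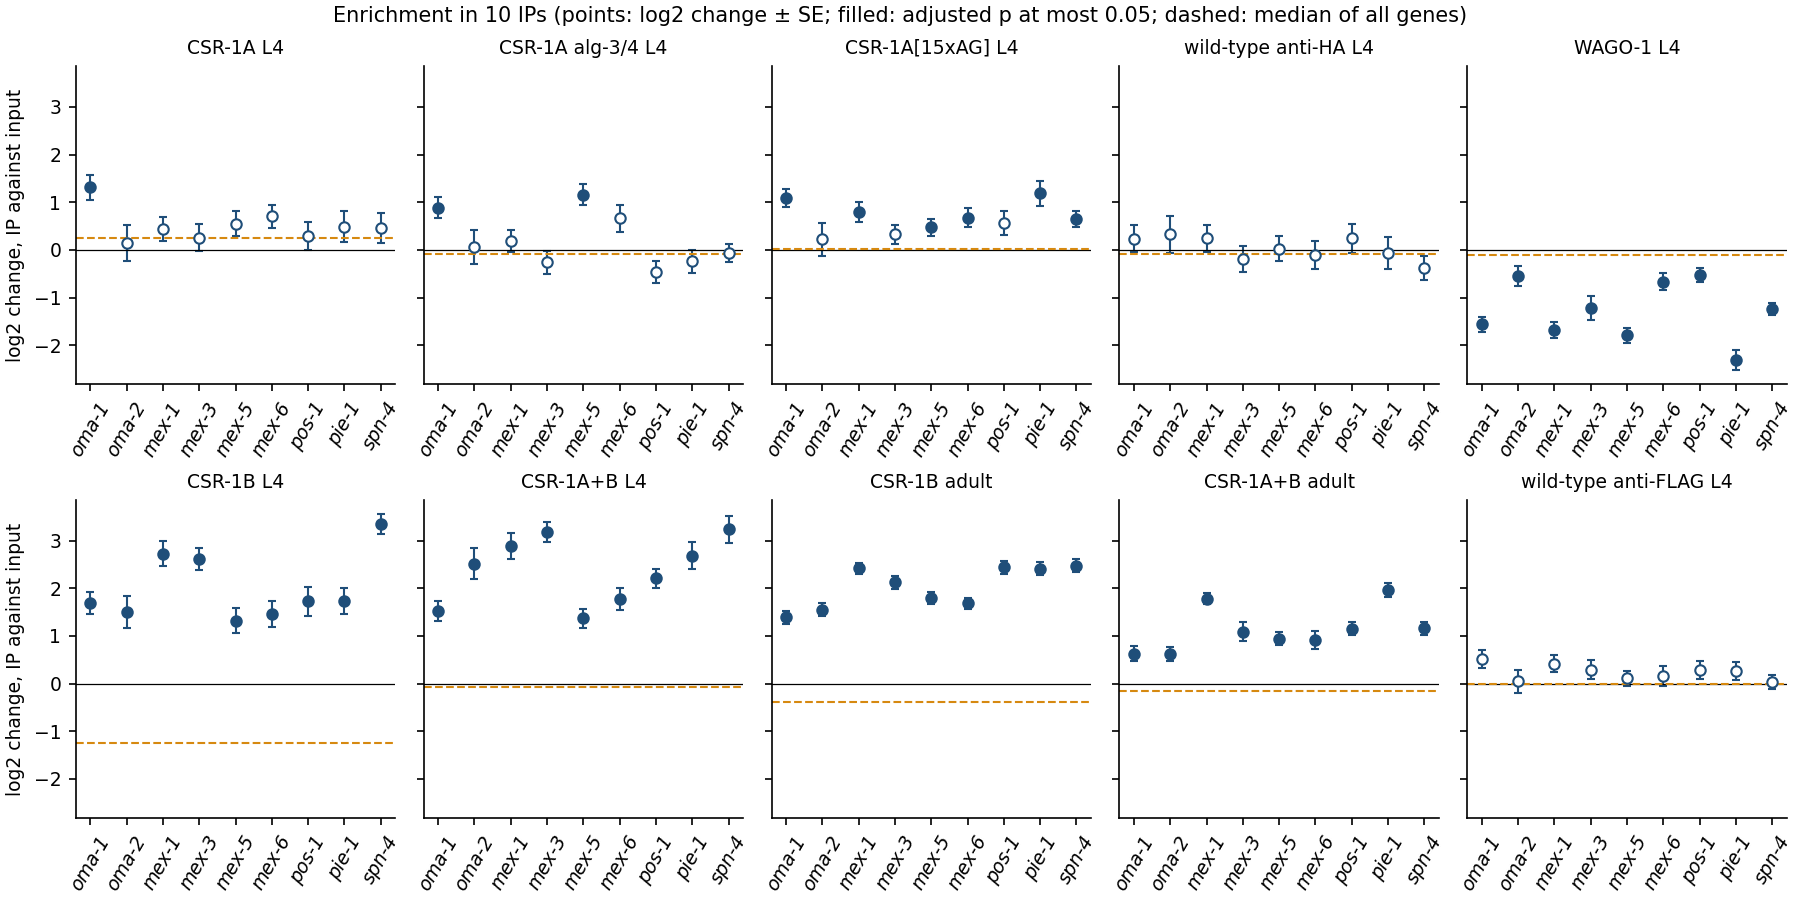
Log2 change of each gene in IP against input with its SE, for 10 IPs, filled where the adjusted p is at most 0.05, with the median of all genes dashed. The 9 genes lie above that median in each CSR-1B IP and each CSR-1A+B IP and below it in the WAGO-1 IP, and in the CSR-1A IP 1 point is filled.

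Lists of genes that work with these proteins were followed in the same IPs. Of mRNAs that the 9 proteins are known to regulate, 8 of 9 tested passed the test as higher in the CSR-1B IP (median log2 1.42, beside 32.4% of genes), led by mei-1, the microtubule-severing subunit of the meiotic spindle (log2 2.59), and the ubiquitin ligase rnf-5 (log2 2.37), and 0 of 9 did in the CSR-1A IP (median 0.56, beside 20.8% of genes). Of 10 regulators of the proteins, such as the kinases that mark OMA-1 for removal after fertilization, 8 were higher with CSR-1B and 5 with CSR-1A. The cell cycle kinase cdk-1 (log2 3.31) and the polo kinase plk-1 (2.63) led with CSR-1B, and the kinase mbk-2 (1.49) and its anchor egg-3 (1.08) with CSR-1A. Of 23 other germline translational regulators, 20 were higher with CSR-1B, led by the P granule helicase cgh-1 (3.35) and its partner car-1 (3.23), and 4 with CSR-1A, led by the poly(A) polymerase gld-2 (1.75) and cpb-1, a CPEB protein (1.34). Of 10 sperm markers, 0 were higher and 4 lower with CSR-1B, where 54.2% of all genes were lower, and 8 were higher with CSR-1A. The difference between the isoforms itself was higher with CSR-1B for 4 of 9 targets, 5 of 10 regulators and 16 of 23 translational regulators, and lower for 7 of 10 sperm markers, beside 37.6% of all genes. These lists were chosen with results of these libraries known.

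With both isoforms pulled down together at L4, all 9 members were enriched as well, beside 30.4% of 13094 genes, and lay above the inputs by RPM without overlap, as did 58.5%. Small RNAs of spn-4 rose from 4.40 and 7.12 RPM in the inputs to 126 and 86.0 RPM in the IPs, a log2 of 3.24 ± 0.29 (adjusted p = 4.16e-05). Those of oma-2 rose from 1.51 and 0.80 RPM to 12 and 15.6 RPM, a log2 of 2.52 ± 0.33 (adjusted p = 0.000289). The remaining 7 members ranged from 1.37 (mex-5) to 3.18 (mex-3). No call was lost when any of the 4 libraries was left out. Between the L4 inputs of the 2 strains, which differ in whether CSR-1A is present, no member passed in edgeR, in DESeq2 or at an unadjusted p under 0.05 (0 of 9 in each), at log2 differences of -0.19 (oma-1) to 0.52 (pie-1), where 2.18% of 13549 genes were higher and 4.27% lower.

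Adults held far more small RNA of these genes in the input, and CSR-1B still enriched all of them. In the strain of the CSR-1B IP, all 9 members were higher in the adult than in the L4 input, beside 38.2% of 14573 genes, and in the CSR-1A+B strain all 9 again, beside 41.8% of 14565. By RPM the stages did not overlap for any member, as for 63.7% and 57.1% of genes that were higher in adults. On the fitted log2 scale the rise was steepest for mex-1 and oma-2. Small RNAs of mex-1 went from 2.16 and 1.57 RPM in L4 to 25.2 and 26.2 RPM in adult inputs of the CSR-1B strain, a log2 of 2.79 ± 0.16 (adjusted p = 8.9e-09). Those of oma-2 went from 1.51 and 1.71 RPM to 15.2 and 17.5 RPM, a log2 of 2.41 ± 0.18 (adjusted p = 1.08e-07). Small RNAs of oma-1 went from 3.80 and 3.49 RPM to 15.5 and 14.6 RPM, a log2 of 1.09 ± 0.14 (adjusted p = 1.5e-05), and the rise of mex-3 was close to it (log2 1.11). In the CSR-1A+B strain the log2 rise ran from 0.96 ± 0.15 for oma-1 to 3.16 ± 0.22 for oma-2. No member lost its call when any library was left out in either strain.

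**Figure D3:**
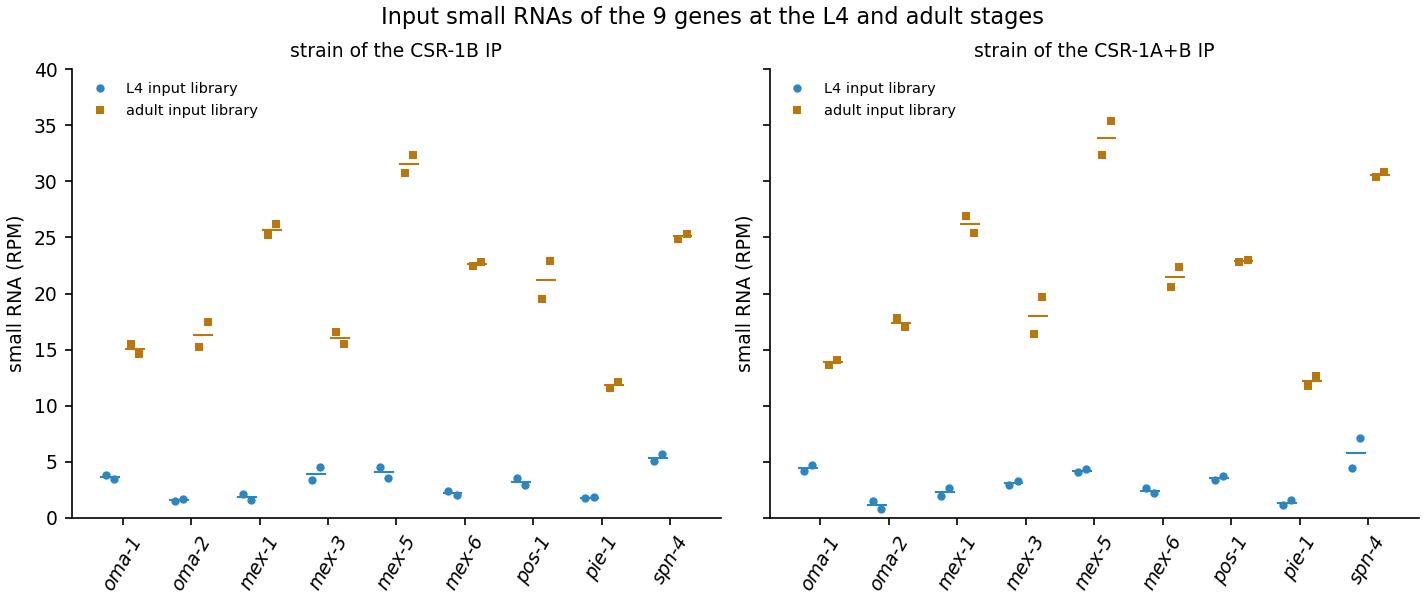
Small RNA of the 9 genes in RPM in L4 (circles) and adult (squares) input libraries of the CSR-1B strain (left) and the CSR-1A+B strain (right), with each symbol 1 library and each short line a mean of 2. All adult libraries lie above all L4 libraries for each gene in both panels.

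Oocyte and yolk genes moved with the members between the stages. Small RNAs of the 9 oocyte markers summed to 53.4 to 53.8 RPM in L4 and 427 to 464 RPM in adult inputs of the CSR-1B strain, and to 51.3 to 52.0 and 505 to 520 RPM in the CSR-1A+B strain, with 9 of 9 higher in each. Those of 6 vitellogenins, the yolk proteins, went from 52.2 to 101 RPM to 1940 to 2302 RPM in the CSR-1B strain, with 6 of 6 higher. Of 10 sperm markers 7 were lower and 1 higher in adults of the CSR-1B strain, where 39.2% of all genes were lower, and 10 were lower in the CSR-1A+B strain, beside 41.4%. The L4 inputs of these strains are the ones with low sums named above. The part of these shifts in the members' rise was not tested.

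In adults the CSR-1B IP enriched all 9 members, beside 29.3% of 14372 genes, with the L4 anti-FLAG IP as the control. By the test alone 39.5% of genes were higher and 46.6% lower. Among the CCCH genes, mex-1 was at 25.2 and 26.2 RPM in the inputs and at 159 and 172 RPM in the IPs, and pos-1 at 19.5 and 22.9 RPM and at 133 and 143 RPM. For spn-4 the inputs held 24.8 and 25.4 RPM and the IPs 148 and 189 RPM. None of these overlapped, nor did any other member, as for 45.1% of genes that were higher. The log2 enrichments of spn-4, pos-1, mex-1 and pie-1 lay together at 2.48, 2.44, 2.42 and 2.41 (SE 0.12 to 0.14), those of mex-3, mex-5, mex-6 and oma-2 at 2.13, 1.80, 1.68 and 1.55, and that of oma-1 was smallest at 1.39 ± 0.14 (adjusted p = 1.03e-06).

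The adult CSR-1A+B IP was then examined, and no test compared it with the adult CSR-1B IP. Small RNAs of oma-1 were at 13.6 and 14.1 RPM in the inputs and 25.8 and 29.4 RPM in the IPs, and those of pie-1 at 11.7 and 12.6 RPM and at 63.6 and 58.8 RPM. All 9 members passed the test as higher, beside 36.1% of 14036 genes, and all 9 lay above the inputs by RPM, beside 47.8%. The 2-fold minimum was met by 5 of them: pie-1 (log2 1.97 ± 0.14), mex-1 (1.78 ± 0.12), spn-4 (1.16 ± 0.14), pos-1 (1.15 ± 0.14) and mex-3 (1.09 ± 0.20), beside 24.9% of genes called enriched. The log2 values of mex-5, mex-6, oma-1 and oma-2 were 0.94, 0.92, 0.63 and 0.62, and those of oma-1 and oma-2 no longer passed when either input was left out. The count of enriched members was 4 without input replicate 1 or IP replicate 2 and 7 without input replicate 2 or IP replicate 1.

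The change of enrichment with stage was tested within each strain. With CSR-1A+B it fell from L4 to adult by 1.87 ± 0.32 on the log2 scale for mex-3 (adjusted p = 0.00211), by 1.85 ± 0.32 for spn-4 (adjusted p = 0.00226), by 1.68 for oma-2, by 0.88 for mex-1 and by 0.84 for pos-1. These 5 of 9 members compare with 13.4% of 15111 genes that were lower. The count was 3 without either adult input. In the CSR-1A+B strain the median of the 9 members' mean levels rose from L4 to adult in the IPs, from 25.4 to 61.2 RPM. In the inputs it rose from 3.09 to 21.5 RPM, and these L4 inputs are among those with low sums named above. A lower enrichment in adults thus went with a higher median level in the IPs. The part of the input rise in the lower enrichment was not tested. With CSR-1B alone 0 of 9 passed in edgeR, 1 of 9 of them at an unadjusted p under 0.05. The edgeR values ran from -1.37 ± 0.49 for spn-4 (adjusted p = 0.0528) to 0.19 ± 0.56 for pos-1. In that fit 14.4% of 15085 genes were higher and 5.36% lower. DESeq2 called 4 members lower, beside 1913 of 15085 genes. Leaving out 1 L4 library of the CSR-1B strain gave 2 to 5 members called. The difference between the strains in this change was not tested.

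The CSR-1A IP was also made in animals without ALG-3 and ALG-4, Argonautes of the spermatogenic small RNA pathway. There 2 of 9 members passed the test as higher, beside 3132 of 12436 genes. Enrichment was called for 1 of 9, beside 13% of 12436 genes, and for 2 of 9 without IP replicate 1. The member called was mex-5, with 8.62, 8.78 and 8.97 RPM in the inputs and 35.5, 55.7 and 61.8 RPM in the IPs, a log2 of 1.15 ± 0.22 (adjusted p = 0.00111). Small RNAs of oma-1 were at 6.60, 9.31 and 8.52 RPM in the inputs and 28.2, 40.8 and 47.6 RPM in the IPs and passed the test below the 2-fold minimum (0.88 ± 0.22, adjusted p = 0.00485). All 9 lay above the inputs by RPM, as did 67.3% of genes, since the median gene was itself 2.43-fold higher in the IP. The other 7 had log2 values of -0.46 (pos-1) to 0.66 (mex-6). Scaling by library size alone put those below 0 (pos-1, pie-1, mex-3 and spn-4) at 0.43 to 0.83. Under that scaling 4 of 9 members were enriched, beside 4127 of 12436 genes. With the replicate number as a block mex-6 passed too (0.68, adjusted p = 0.0416). Against the enrichment in CSR-1A animals with intact alg-3 and alg-4, no member passed in edgeR (0 of 9, with 1 of 9 at an unadjusted p under 0.05 and 0 of 9 in DESeq2), at differences of -0.32 (pos-1) to 1.03 ± 0.35 (mex-5, adjusted p = 0.178), where 2.04% of 14296 genes were higher and 0.049% lower.

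In the alg-3/4 inputs 2 of 9 members were lower than in the CSR-1A inputs, beside 18.2% of 13190 genes. Small RNAs of mex-6 were at 3.62, 2.72 and 2.44 RPM against 8.58 and 8.75 RPM, a log2 of -1.23 ± 0.26 (adjusted p = 0.0101). Those of mex-1 were at 6.55, 7.74 and 5.59 RPM against 13 and 15.1 RPM, a log2 of -0.77 ± 0.20 (adjusted p = 0.0238). By RPM 8 of 9 members were lower without overlap, as were 44.9% of genes. Both calls were lost without CSR-1A input replicate 3 or alg-3/4 input replicate 3, 1 remained without CSR-1A input replicate 2, and 3 members were called without alg-3/4 input replicate 1. With the replicate number as a block 4 of 9 passed as lower, beside 3484 of 13190 genes.

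In the CSR-1A[15xAG] IP 6 of 9 members were higher, beside 37.1% of 13305 genes: pie-1, oma-1, mex-1, mex-6, spn-4 and mex-5, with log2 values of 1.19 ± 0.27, 1.08 ± 0.19, 0.79 ± 0.21, 0.68 ± 0.20, 0.65 ± 0.17 and 0.48 ± 0.18. Only oma-1 met all criteria of enrichment, at 3.61, 4.49 and 3.88 RPM in the inputs and 16.7, 22.2 and 22.9 RPM in the IPs, so that 1 of 9 compares with 19.5% of genes, and its log2 value was 0.99, just under 2-fold, without input replicate 1. Small RNAs of pie-1 rose from 1.91, 1.5 and 1.10 RPM to 9.28, 6.85 and 8.09 RPM, under the 10 RPM minimum in the mean of the IPs. All 9 lay above the inputs by RPM, beside 64.6% of genes. With library size alone as the scaling 7 of 9 were enriched, beside 4889 of 13305 genes. DESeq2 did not call mex-5 (0.43, adjusted p = 0.111). Muscle and cuticle genes moved strongly in the same comparison: 4 of 4 muscle markers (median log2 -4.13) and 5 of 5 adult cuticle collagens (median -3.74) were lower, beside 36% of genes, and small RNAs of the muscle markers summed to 1312 to 1645 RPM in these inputs against 310 to 358 RPM in the CSR-1A inputs. Their part in the members' values was not tested. The call of mex-5 was lost without input replicate 1, input replicate 3 or IP replicate 1. Tested against the CSR-1A enrichment, 0 of 9 members passed in edgeR or DESeq2, and 1 of 9 did at an unadjusted p under 0.05. The differences ran from -0.03 ± 0.29 (oma-1, adjusted p = 0.963) to 0.92 ± 0.37 (pie-1, adjusted p = 0.0979), where 7.48% of 14846 genes were higher and 11.6% lower.

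The WAGO-1 IP at L4 held less of every member than its input. Small RNAs of pie-1 were at 13.3 and 12 RPM in the inputs and 2.54 and 2.05 RPM in the IPs, a log2 of -2.31 ± 0.21 (adjusted p = 1.28e-07). Those of mex-5 were at 22.3 and 17.2 RPM in the inputs and 5.62 and 4.57 RPM in the IPs, a log2 of -1.79 ± 0.16 (adjusted p = 1.09e-07). The smallest decrease was that of pos-1, from 13.1 and 12.9 RPM to 8.16 and 7.83 RPM, a log2 of -0.53 ± 0.15 (adjusted p = 0.00424). All 9 members were lower, beside 44.1% of 13527 genes, and did not overlap, as for 50.1% of genes that were lower by RPM. The calls of oma-2 (without either IP) and mex-3 (without IP replicate 2) were lost, and DESeq2 did not call oma-2, mex-6 and pos-1. The difference of the WAGO-1 and CSR-1B enrichments passed for all 9, beside 35.6% of 14541 genes that were lower, from -2.43 ± 0.46 for oma-2 to -4.84 ± 0.44 for spn-4 (adjusted p = 4.35e-08). It was lost for oma-2 without CSR-1B IP replicate 2. Strain, tag, the presence of CSR-1A and the version of the counting program in the file headers change together with the Argonaute here. So do the inputs, where the members' means were 7.08 to 19.9 RPM for WAGO-1 and 1.61 to 5.37 RPM for CSR-1B. These cannot be told apart from the Argonaute. Of the related lists, 5 of 9 mRNA targets were lower and 4 higher with WAGO-1, where 42.1% of all genes were higher, 7 of 10 regulators were lower and 1 higher, and 18 of 23 other translational regulators were lower and 1 higher (the CPEB protein cpb-1, log2 2.09).

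Across 21 groups of small RNA libraries, the genes whose mean log2 levels ran most like the average of the 9 members were gfat-2, an amino sugar synthesis enzyme, gon-4, a gonad development gene, and chs-1, the eggshell chitin synthase, with Pearson's r of 0.991, 0.990 and 0.990 among 10803 genes ranked. The members themselves ran from 0.907 (oma-1) to 0.989 (mex-1). The groups share strains, stages and scaling, so these are descriptions only.

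The mRNAs of the members were compared between L4 animals without CSR-1A and wild type, and more members passed in one allele than in the other. In csr-1a(cmp135) 8 of 9 members were higher, beside 21% of 14247 genes, and did not overlap with wild type, as for 20.2% of genes that were higher. The median log2 change of the 9 was 1.6, against -0.01 over all genes. In csr-1a(cmp143) 3 of 9 were higher, beside 12.5% of 14065 genes, and 4 of 9 did not overlap, beside 13.4%. The median there was 1.02, against -0.02. Both alleles were compared with the same wild-type libraries.

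The largest changes were those of oma-2 and pos-1. The mRNA of oma-2 was at 2.31, 1.90 and 2.24 CPM in wild type, at 15.1, 6.16 and 7.87 in csr-1a(cmp135) and at 5.38, 8.68 and 2.99 in csr-1a(cmp143). Every mutant library lay above every wild-type library. The log2 change of oma-2 was 2.30 ± 0.31 (adjusted p = 0.000209) in csr-1a(cmp135) and 1.55 ± 0.38 (adjusted p = 0.0231) in csr-1a(cmp143). The mRNA of pos-1 was at 2.68, 4.93 and 4.05 CPM in wild type, at 21.8, 12.5 and 11.6 in csr-1a(cmp135) and at 9.56, 15.3 and 5.33 in csr-1a(cmp143), again without overlap. The log2 change of pos-1 was 2.1 ± 0.28 (adjusted p = 0.000184) and 1.51 ± 0.40 (adjusted p = 0.0298). For mex-1, wild type held 3.21, 3.46 and 3.61 CPM, csr-1a(cmp135) 17, 7.16 and 8.73, and csr-1a(cmp143) 6.75, 9.63 and 5.02. All mutant libraries of mex-1 were higher, at a log2 of 1.81 ± 0.29 (adjusted p = 0.000695) and 1.20 ± 0.27 (adjusted p = 0.0161).

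Within the related pairs the values were as follows. For oma-1 the wild-type libraries held 2.73, 2.80 and 2.92 CPM, those of csr-1a(cmp135) 11.8, 6.04 and 5.65, and those of csr-1a(cmp143) 5.62, 8.01 and 1.83, the last below wild type. The log2 change of oma-1 was 1.6 ± 0.28 (adjusted p = 0.00104) in the first allele and 1.02 ± 0.47 (adjusted p = 0.16) in the second. For mex-6 the libraries of csr-1a(cmp143) held 5.32, 12.5 and 3.35 CPM against 2.58, 3.08 and 3.02 in wild type, without overlap. The log2 change of mex-6 there was 1.44 ± 0.46 and did not pass in edgeR (adjusted p = 0.0574). It passed in DESeq2 (adjusted p = 0.00752), without a filter on low counts (0.021) and with all 9 mRNA libraries in 1 fit (0.0465). It did not pass under the other scalings or with the replicate block. In csr-1a(cmp135) mex-6 rose by 1.77 ± 0.30 and mex-5 by 1.34 ± 0.31 on the log2 scale. The change of mex-5 in csr-1a(cmp143) was 0.97 ± 0.31 (adjusted p = 0.0583). Of the other settings, it passed in DESeq2 (adjusted p = 0.0129) and without a filter on low counts (0.0234).

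For spn-4, mex-3 and pie-1 the changes were smaller. In csr-1a(cmp135) spn-4 rose by 1.06 ± 0.22 (adjusted p = 0.00377) and mex-3 by 0.89 ± 0.22 (adjusted p = 0.0089), and in csr-1a(cmp143) their log2 changes were 0.82 ± 0.35 and 0.51 ± 0.26, with overlap. The mRNA of pie-1 overlapped between all 3 groups, at 2.63, 3.70 and 2.19 CPM in wild type, 5.69, 2.55 and 4.45 in csr-1a(cmp135), and 2.93, 3.70 and 2.28 in csr-1a(cmp143). Its log2 changes were 0.70 ± 0.30 (adjusted p = 0.0861) and 0.21 ± 0.30 (adjusted p = 0.673). The change in csr-1a(cmp135) passed in edgeR without a filter on low counts (adjusted p = 0.046).

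**Figure D4:**
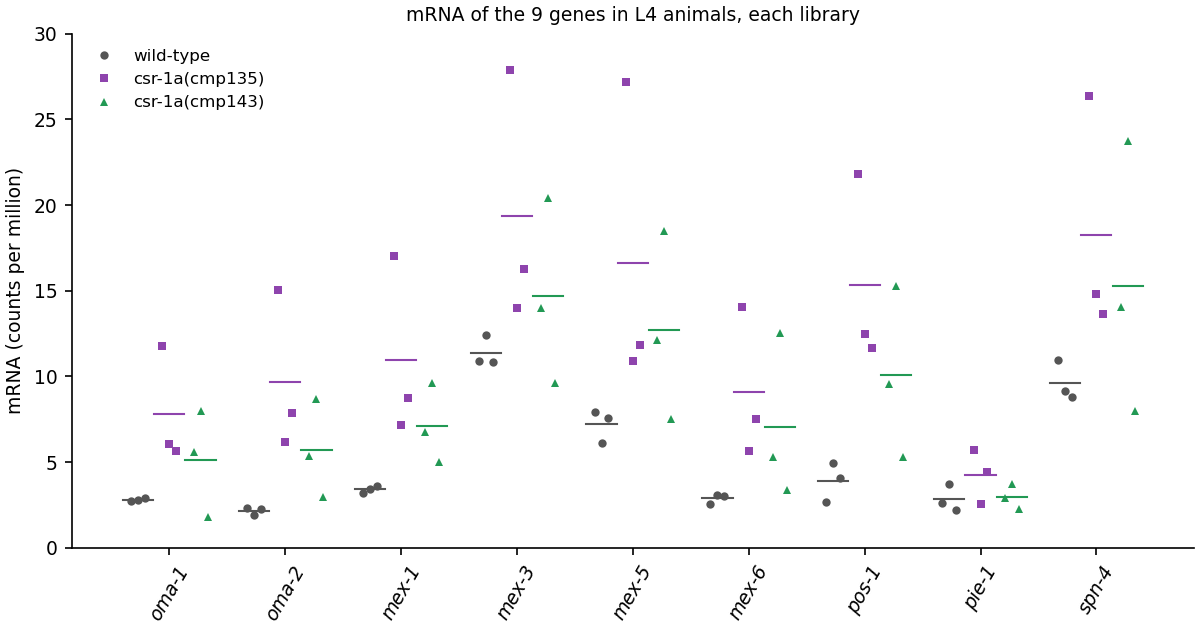
L4 mRNA of the 9 genes in CPM, with each symbol 1 library of wild type (circles), csr-1a(cmp135) (squares) or csr-1a(cmp143) (triangles) and each short line a mean of 3. In each mutant 1 library lies highest for all 9 genes, and the wild-type libraries lie close together.

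Single libraries set much of these values. Library csr-1a(cmp135) replicate 1 was the highest of its group for 9 of 9 members, library csr-1a(cmp143) replicate 2 was too, and csr-1a(cmp143) replicate 3 was the lowest of its group for 9 of 9. Summed over the members, wild type was at 45.2 to 47.5 CPM, csr-1a(cmp135) at 167, 79.7 and 87.6, and csr-1a(cmp143) at 75.7, 121 and 45.9. In csr-1a(cmp135) no call was lost when any of the 6 libraries was left out. In csr-1a(cmp143) the count of members called was 8 without replicate 3, 1 without replicate 1, 2 without replicate 2, 0 without wild-type replicate 1 or 2, and 1 without wild-type replicate 3. With the replicate number as a block, 2 of 9 were called in csr-1a(cmp143), since oma-2 was lost (log2 1.43, adjusted p = 0.0515). Between the alleles no member passed in edgeR (0 of 9, and 0 of 9 at an unadjusted p under 0.05 or in DESeq2), at log2 differences of -0.76 (oma-2) to -0.24 (spn-4), and 0% of 13898 genes were called.

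Oocyte and yolk genes were higher in the same libraries. The mRNAs of the 9 oocyte markers, none of them a member, summed to 48.2 to 49.2 CPM in wild type, to 327, 186 and 192 in csr-1a(cmp135) and to 177, 250 and 76.9 in csr-1a(cmp143), with 9 of 9 and 7 of 9 higher. The order of these sums over the libraries of each mutant was that of the members. The 6 vitellogenins summed to 152 to 250 CPM in wild type, 2931 to 4495 in csr-1a(cmp135) and 1834 to 4989 in csr-1a(cmp143), and 5 of 6 and 6 of 6 were higher. Of 5 adult cuticle collagens 3 were higher and 2 lower in both alleles, at log2 values of -2.18 to 10.53 and -1.58 to 9.52, and their sum was 1223 to 1520 CPM in wild type, 1199 to 1353 in csr-1a(cmp135) and 851 to 1184 in csr-1a(cmp143). The 10 sperm markers summed to 129 to 132 CPM in wild type, to 106, 127 and 135.5 CPM in csr-1a(cmp135), the highest above every wild-type library, and to 58.1 to 114 CPM in csr-1a(cmp143), with 1 higher and 1 lower in csr-1a(cmp135) and 0 called in csr-1a(cmp143). Over all genes 17.7% and 8.77% were lower. Of 4 muscle markers 2 were lower in csr-1a(cmp135) and 0 were called in csr-1a(cmp143). The part of these genes' shifts in the members' changes was not tested.

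The lists around the 9 proteins moved less evenly at the mRNA level in csr-1a(cmp135). Of 9 mRNA targets tested 2 were higher, nos-2 (log2 2.73), a germ cell RNA regulator, and pal-1 (0.90), and 2 were lower, zif-1 (-0.49), which marks PIE-1 for degradation in somatic cells, and lin-41 (-0.69), the lower ones being named after their values were seen. Of 10 regulators 2 were higher, egg-3 (1.68) and mbk-2 (0.79), and 4 were lower. Of 23 other translational regulators 9 were higher, led by the oogenic PUF genes puf-5 (2.99) and puf-7 (2.45), and 2 lower. In csr-1a(cmp143) the counts were 2, 1 and 2 higher and 0 lower, beside 1753 of 14065 genes higher and 1234 lower. In csr-1a(cmp135) 2994 of 14247 genes were higher and 2519 lower. Of the genes named, egg-3 and puf-5 are also oocyte markers in the sums above. The median log2 change of these 3 lists was 0.18, -0.17 and 0.28 in csr-1a(cmp135), against 1.6 for the members.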

How the data were processed

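Small RNA and mRNA libraries of C. elegans were analysed from per-gene tables. For small RNA the authors clipped and filtered reads with the FASTX-Toolkit, aligned them with Bowtie2 2.2.2 to WS258 and assigned them to exons with featureCounts (Subread 1.5.1 in their methods, 1.5.1 or 1.6.5 in the file headers), with a read shared by overlapping genes split between them. What they deposited for small RNA is therefore expected counts. Reads of mRNA were trimmed by the authors with Trimmomatic 0.36 and aligned with HISAT2 2.1.0, and the deposited tables hold whole counts of read pairs (featureCounts 2.0.0 in the headers). No table was normalized.

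Expected counts were rounded to whole numbers. Tests were edgeR 4.0.16 quasi-likelihood fits (R 4.3.3, trimmed mean of M values, filterByExpr) over the libraries of each comparison, with Benjamini-Hochberg adjustment over all genes tested and differences of enrichment as interaction terms. The SE is the log2 change divided by the square root of F. DESeq2 1.42.0 was an alternative, with its size factors, library size alone, no filter, other RPM minimums and denominators, the replicate block and each library left out in turn. For mRNA, all 9 libraries in 1 fit was a further alternative. RPM used genome-mapped reads from the study's library statistics, mRNA levels the counts on genes. Patterns were compared on log2(RPM + 1). Fits were tested on simulated data.

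The text names all 9 members, and from each list the genes with the largest called change. Members and lists were chosen with earlier results of these data known. Each library was grouped by its labels. No replicates were identical, and all 46 pairs differed beyond counting noise. An input comes from the lysate of its IP, which pairs same-numbered libraries, though the CSR-1A inputs are numbered otherwise in their headers. The correlation of paired deviations at L4 was 0.106 in the CSR-1A strain, 0.151 with CSR-1B alone and 0.0131 with both isoforms, 0.238 to 0.482 in the alg-3/4 strain, -0.292 to 0.0223 in CSR-1A[15xAG], 0.035 for WAGO-1, 0.256 to 0.554 for anti-FLAG and 0.689 for anti-HA controls. In adults it was 0.00715 with CSR-1B and 0.0693 with both. The anti-HA input replicate 2 of wild type ends partway through the gene list and was not used. Median depth was 5874917 counts for small RNA and 19021255 for mRNA. The members rested on 7 to 126 reads each in the shallowest IP.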

Additional observations from a re-analysis of the deposited data

Results flagged for a closer look

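The enrichment of 7 members differed between the CSR-1B and CSR-1A IPs at L4 by the interaction test in edgeR, at log2 differences of 1.75 (oma-2), 2.68 (mex-1), 2.71 (mex-3), 1.20 (mex-6), 1.80 (pos-1), 1.64 (pie-1) and 3.26 (spn-4). The enrichment of 5 members in the CSR-1A+B IP differed between adult and L4, at -1.68 (oma-2), -0.88 (mex-1), -1.87 (mex-3), -0.84 (pos-1) and -1.85 (spn-4). The enrichment of all 9 differed between the WAGO-1 and CSR-1B IPs at L4, at -3.56 (oma-1), -2.43 (oma-2), -4.70 (mex-1), -4.06 (mex-3), -3.41 (mex-5), -2.46 (mex-6), -2.56 (pos-1), -4.37 (pie-1) and -4.84 (spn-4). The first and the last of these tests share the CSR-1B libraries.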

How the results depend on the processing

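Of 1521 values of single members under an alternative, 1373 kept direction and side of the threshold, 59 passed it newly, 70 lost it and 19 reversed. These values cover only the WAGO-1 IP and comparisons with a called member in the reported edgeR fits. The stage change with CSR-1B and the 15xAG and alg-3/4 differences from CSR-1A are therefore not among them. With library size alone, the members enriched went from 1 to 4 (CSR-1A in alg-3/4) and from 1 to 7 (CSR-1A[15xAG]). Over all genes the enriched went from 1618 to 4127 and from 2594 to 4889. Members with a higher enrichment than in CSR-1A went from 0 to 1 (alg-3/4) and from 0 to 6 (15xAG). Genes higher there went from 292 to 857 and from 1110 to 4939. Members with a lower enrichment in adults went from 0 to 8 (CSR-1B) and from 5 to 9 (CSR-1A+B). Genes lower there went from 808 to 5514 and from 2020 to 5189. In the alg-3/4 input the members lower went from 2 to 5 and the genes from 2401 to 3821. Library size alone shifted the median of all genes by 1.08 (CSR-1B L4), 0.90 (alg-3/4), 1.10 (15xAG), -0.79 (CSR-1B stage) and -0.73 (CSR-1A+B stage) on the log2 scale. The percent of calls that were higher moved from 37.4 to 49.6, from 44.1 to 82.6, from 50.7 to 81.2, from 72.9 to 20.1 and from 53.7 to 9.99 in these comparisons. In csr-1a(cmp135) it moved from 54.3 to 38.7 and in csr-1a(cmp143) from 58.7 to 39.6.

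DESeq2, and its size factors in edgeR, gave 4 members for the stage change with CSR-1B, beside 1913 and 3015 of 15085 genes lower. Without a filter the stage changes held 6 (CSR-1B) and 8 (CSR-1A+B) members, beside 3992 of 26543 and 4435 of 26114 genes lower. The alg-3/4 IP then held 2, beside 1909 of 24050 genes. DESeq2 gave 1 member in the alg-3/4 input, beside 1952 of 13190 genes lower, and 5 in csr-1a(cmp143), as did no filter. Genes higher in csr-1a(cmp143) were then 2039 of 14065 and 1990 of 20730. All 9 mRNA libraries in 1 fit gave 4 members there, beside 2239 of 14419 genes higher. In the 15xAG IP a minimum of 5 RPM, or counts on genes as denominator, gave 2, beside 2983 and 2736 of 13305 genes.

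Values that reversed were small except under library size: oma-2 with CSR-1A at -0.10 (DESeq2 and its size factors), spn-4 in the alg-3/4 IP at 0.015 (DESeq2 and its size factors), 0.11 (no filter) and 0.83 (library size), and mex-3, pos-1 and pie-1 there at 0.64, 0.43 and 0.65. In the alg-3/4 input oma-1 and pie-1 went to -0.25 each with library size. With each library left out, reversed values ranged from -0.21 to 0.34 (oma-2, CSR-1A), -0.24 to 0.32 (oma-2, alg-3/4 IP), -0.12 to 0.055 (spn-4, alg-3/4 IP), -0.33 to 0.048 (mex-3, alg-3/4 input), -0.031 to 0.27 (pie-1, alg-3/4 input) and -0.0053 to 0.47 (pie-1, csr-1a(cmp143)). The counts then ranged from 0 to 1 (CSR-1A), 1 to 2 (alg-3/4), 0 to 1 (15xAG), 6 to 9 (CSR-1B L4), 4 to 7 (CSR-1A+B adult), 3 to 9 (CSR-1B against CSR-1A), 0 to 5 and 3 to 7 (stage, CSR-1B and CSR-1A+B), 8 to 9 (WAGO-1 against CSR-1B), 0 to 3 (alg-3/4 input), 8 to 9 (csr-1a(cmp135)) and 0 to 8 (csr-1a(cmp143)). The cause was not tested.

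With the replicate number as a block, the alg-3/4 input held 4 members, mex-5 (-0.52) and pos-1 (-0.52) being gained and mex-3 moving to 0.035. The other calls it changed stand with their results: mex-6 in the alg-3/4 IP, oma-2 and mex-6 between CSR-1B and CSR-1A, and oma-2 in csr-1a(cmp143). It changed no other call of a member. Across strains, stages and mRNA groups the libraries share only a number, with correlations from -0.492 to 0.343.

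Depth limits the CSR-1B L4 values, since 1 of its 2 IPs is the shallowest library, and groups of 2 or 3 give few degrees of freedom.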

Other observations

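Genes that work with the 9 proteins were counted in the adult IPs too. In the CSR-1B IP of adults all 10 of 10 mRNA targets (median log2 1.91), 9 of 10 regulators (2.31) and 22 of 23 other translational regulators (2.13) were higher, beside 39.5% of all genes. Of 10 sperm markers 1 was higher and 5 were lower (median -0.98), beside 46.6% of all genes that were lower. In the adult CSR-1A+B IP 10 of 10 targets (1.25), 9 of 10 regulators (1.64) and 21 of 23 translational regulators (1.59) were higher, beside 36.1% of all genes. Of 5 related CCCH genes tested in the CSR-1B adult IP, 4 were higher and 1 was lower. In the adult CSR-1A+B IP ccch-3 passed (log2 2.32), and ccch-1 (-0.54), ccch-5 (-0.16) and dct-13 (1.02) did not. In the L4 CSR-1B IP ccch-3 was higher (2.91) and ccch-1 lower (-2.90).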
